A study of Homo sapiens with 8 samples.

Results

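A set of 8 genes of myeloid granules and their chromosomal surroundings was followed across the series. They are the serine protease family genes PRTN3, ELANE, AZU1 and CTSG, the peroxidase genes MPO, EPX and LPO, and TSPOAP1, which lies beside MPO. They make up 8 of the 34618 genes of the count table and were matched by Ensembl gene ID. The genes were picked with the difference between the study's groups in view, so that difference is given for them as a description, without p-values. Poly(A) RNA was sequenced from cells labelled THP1, a human monocytic leukaemia line, in 4 MOCK libraries (cells engineered with an empty vector) and 4 RRM2_OE libraries (cells engineered with the iRxI/AxA mutant, named RRM2 OE in the sample descriptions). All 8 samples were given doxycycline at 2 µg/mL, controls included. The labels do not say whether the engineered cells were a pool or a clone, nor whether each replicate was grown apart from the others, so the spread behind the p-values below may be technical. The series concerns ribonucleotide reductase and the differentiation block of acute myeloid leukaemia, and the comparison asks which transcripts differ once the mutant is present.

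Azurophil, or primary, granules are formed at the promyelocyte stage of neutrophil development and are also made by monocyte precursors. Their protease and peroxidase genes are transcribed in that early window and are shut down as cells mature, while the proteins remain stored. Myeloperoxidase turns hydrogen peroxide and chloride into hypochlorous acid. Proteinase 3, elastase and cathepsin G are serine proteases stored in active form on the proteoglycan serglycin, and azurocidin is a relative of theirs that has lost its catalytic activity and acts as an antimicrobial and chemotactic protein.

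Library totals lay between 10994255 and 11686152 counts. RRM2 itself was at 116 to 128 CPM (counts scaled to a common library size, with library sizes adjusted by TMM, edgeR's trimmed mean of M-values) in MOCK and at 215 to 236 CPM in RRM2_OE. The label of the line was checked against markers: LYZ, at 1705 ± 118 CPM in MOCK, and CD33, at 120 ± 7.48 CPM (mean ± SD, n = 4), are myeloid genes, whereas CD14 was at 9.72 ± 0.83 CPM and the macrophage marker CD68 at 0.67 ± 0.33 CPM. Genes not commonly described for a monocytic line were expressed too, among them the erythroid and mast cell factor GATA1 at 104 ± 7.81 CPM, the mast cell protease CPA3 at 402 ± 20.8 CPM and the receptor KIT at 311 ± 5.41 CPM in MOCK. In bulk RNA of this kind, fewer cells that express a gene and less RNA of it per cell cannot be told apart.

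The upstream sequences of PRTN3, AZU1 and CTSG are shown because these protease family genes differ in how far they were lower, and because PRTN3 and AZU1 are neighbours. Whether the matches go with the size of the difference was not tested. They cover the 250 bases before the transcription start in RefSeq, build GRCh38.p14, on the gene's strand and 5′ to 3′. PRTN3 is at chr19:840749-840998 (plus strand), AZU1 at chr19:827587-827836 (plus strand) and CTSG at chr14:24576251-24576500 (minus strand). Capitals mark matches, on either strand, to textbook core motifs of myeloid factors: TTGCNNAA (C/EBP), GAGGAA (the ETS family, to which PU.1 belongs), TGTGGT (RUNX) and AACTG (MYB), and, on the plus strand only, TATAAA (the core promoter box bound by TBP).
PRTN3: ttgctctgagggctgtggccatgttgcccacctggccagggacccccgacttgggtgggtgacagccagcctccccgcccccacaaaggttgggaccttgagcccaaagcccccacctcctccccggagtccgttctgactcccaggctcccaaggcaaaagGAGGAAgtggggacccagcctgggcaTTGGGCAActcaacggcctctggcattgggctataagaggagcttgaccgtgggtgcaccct
AZU1: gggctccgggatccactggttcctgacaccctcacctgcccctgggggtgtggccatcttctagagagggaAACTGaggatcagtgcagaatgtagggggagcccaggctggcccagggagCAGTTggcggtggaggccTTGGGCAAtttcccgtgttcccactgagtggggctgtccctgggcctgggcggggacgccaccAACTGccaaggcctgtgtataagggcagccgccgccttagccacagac
CTSG: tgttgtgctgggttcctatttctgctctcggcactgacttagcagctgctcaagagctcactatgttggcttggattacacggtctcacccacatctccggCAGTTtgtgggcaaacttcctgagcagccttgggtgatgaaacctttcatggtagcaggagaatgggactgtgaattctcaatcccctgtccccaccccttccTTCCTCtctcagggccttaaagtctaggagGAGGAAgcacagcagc
PRTN3 and AZU1 carry the same 8 letters, TTGGGCAA, as their C/EBP match, from position -62 to -55 before the start in PRTN3 and from -111 to -104 in AZU1. PRTN3 also has a GAGGAA match at -88 to -83. CTSG has GAGGAA matches at -46 to -41, on the other strand, and at -16 to -11, and a single AACTG match at -149 to -145. AZU1 has 3 AACTG matches. Over all 35116 RefSeq upstream windows of this length, 9.05% held TTGCNNAA, 23.6% GAGGAA, 11.0% TGTGGT, 34.1% AACTG and 6.80% TATAAA. A match describes the letters and not a bound site, and no 2 of the matches overlap. RefSeq windows were matched for 4 of the 8 genes, the fourth being LPO, and not for MPO, EPX, ELANE and TSPOAP1. The LPO window, not shown, has a TTGCNNAA match at -249 to -242 and AACTG matches at -149 to -145 and -35 to -31.

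All 8 genes were lower in RRM2_OE, from 1.41-fold for CTSG to 2.63-fold for MPO, and in each of them the 4 RRM2_OE libraries lay below the 4 MOCK libraries. All 8 passed the filter on low counts. Of the 15286 genes tested, 8.89% had every RRM2_OE library below every MOCK library, and 5.42% were called lower (12.8% in either direction) by edgeR's quasi-likelihood test at a Benjamini-Hochberg adjusted p below 0.05, against 8 of these 8; nothing is read from that count, because the genes were chosen on this contrast. Together the 8 genes took 0.54% ± 0.03 of all counts in MOCK and 0.26% ± 0.01 in RRM2_OE (mean ± SD, n = 4).

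PRTN3 encodes proteinase 3, the most abundant of the 8 transcripts. PRTN3 (ENSG00000196415, chromosome 19, 840963 to 848175 of hg19, plus strand) stood at 2699, 2265, 2510 and 2107 CPM in MOCK replicates 1 to 4 and at 1142, 966, 1132 and 933 CPM in RRM2_OE replicates 1 to 4. The lowest MOCK library was thus far above the highest RRM2_OE library, and replicates 1 and 3 were the higher ones in either group. The RRM2_OE level was 2.30-fold lower (log2 fold change -1.20, SE 0.09, n = 4 per group). PRTN3 alone gave 0.24% of all MOCK counts.

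ELANE encodes neutrophil elastase, whose gene begins 2838 bases after PRTN3 ends. ELANE (ENSG00000197561, chromosome 19, 851014 to 856242, plus strand) was at 499, 444, 501 and 467 CPM in MOCK replicates 1 to 4 and at 252, 231, 226 and 205 CPM in RRM2_OE replicates 1 to 4. The groups did not overlap, and the level was 2.09-fold lower (log2 fold change -1.06, SE 0.06).

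AZU1 encodes azurocidin and is the upstream gene of the 3 on chromosome 19. AZU1 (ENSG00000172232, 825097 to 832017, plus strand) was at 759, 770, 726 and 746 CPM in MOCK and at 459, 467, 458 and 440 CPM in RRM2_OE. Its libraries were tightly grouped, with an SD of 18.6 CPM in MOCK and 11.5 CPM in RRM2_OE, and the level was 1.65-fold lower (log2 fold change -0.72, SE 0.04).

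CTSG encodes cathepsin G and sits apart from the others, in the cluster of granzyme and mast cell protease genes on chromosome 14. CTSG (ENSG00000100448, 25042728 to 25045466, minus strand) was at 357, 385, 376 and 399 CPM in MOCK and at 267, 287, 245 and 274 CPM in RRM2_OE. The highest RRM2_OE library, at 287 CPM, lay below the lowest MOCK library, and the level was 1.41-fold lower (log2 fold change -0.50, SE 0.05), the smallest difference of the 8.

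Per length of transcript, on the authors' RPKM values (read counts scaled by exon length and library total), PRTN3 led in both groups, at 2080 ± 198 RPKM in MOCK and 914 ± 83.8 RPKM in RRM2_OE (mean ± SD, n = 4). In MOCK it was followed by ELANE at 464 ± 25.1, AZU1 at 416 ± 9.55, MPO at 336 ± 37.8 and CTSG at 274 ± 17.2 RPKM, with no overlap between the libraries of neighbours in this order. In RRM2_OE the order was AZU1 at 255 ± 6.76, ELANE at 224 ± 17.1, CTSG at 196 ± 14.7 and MPO at 129 ± 13.0 RPKM, and the libraries of ELANE and CTSG overlapped. MPO thus stood above CTSG in every MOCK library (1.06 to 1.44 times its RPKM) and below it in every RRM2_OE library (0.56 to 0.79 times). EPX, TSPOAP1 and LPO held the last 3 places in both groups.

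Because the 4 protease family genes differed in fold, their mix shifted. PRTN3 made up 61.3% to 66.9% of their summed RPKM in the MOCK libraries and 54.9% to 60.2% in the RRM2_OE libraries. The share of CTSG was 7.35% to 9.65% in MOCK and 10.9% to 13.7% in RRM2_OE, and that of AZU1 12.0% to 13.9% and 15.1% to 16.9%. The share of ELANE was 13.8% to 15.2% in MOCK and 13.5% to 14.7% in RRM2_OE, with overlapping groups, so that the ratio of PRTN3 to ELANE overlapped as well (4.04 to 4.84 against 3.75 to 4.48).

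**Figure D1:**
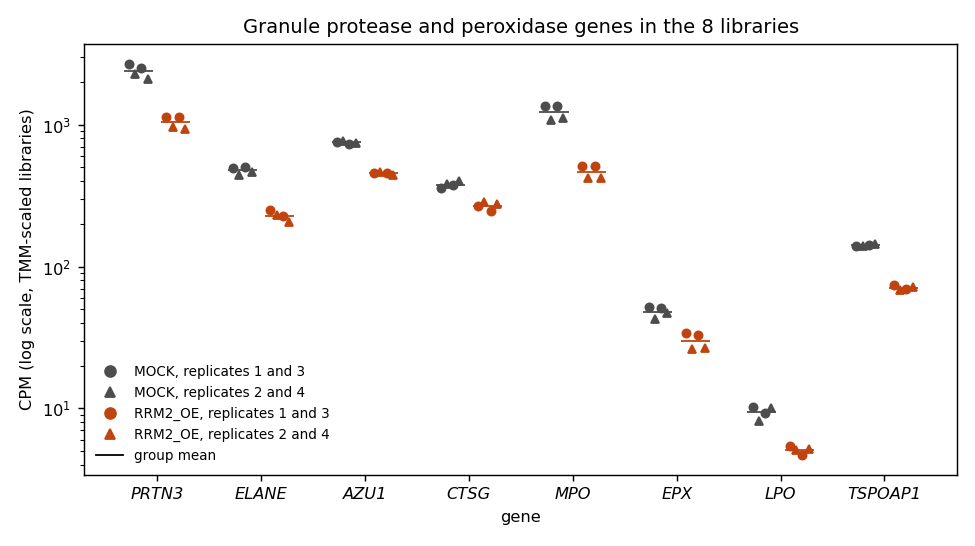
Levels of the 8 genes in every library, in CPM on a log axis; grey marks are MOCK, orange marks RRM2_OE, circles replicates 1 and 3, triangles replicates 2 and 4, and lines the mean of 4 libraries. For each gene all orange marks lie below all grey marks, with the widest gap for MPO (1079 to 1354 against 419 to 512 CPM).

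**Figure D2:**
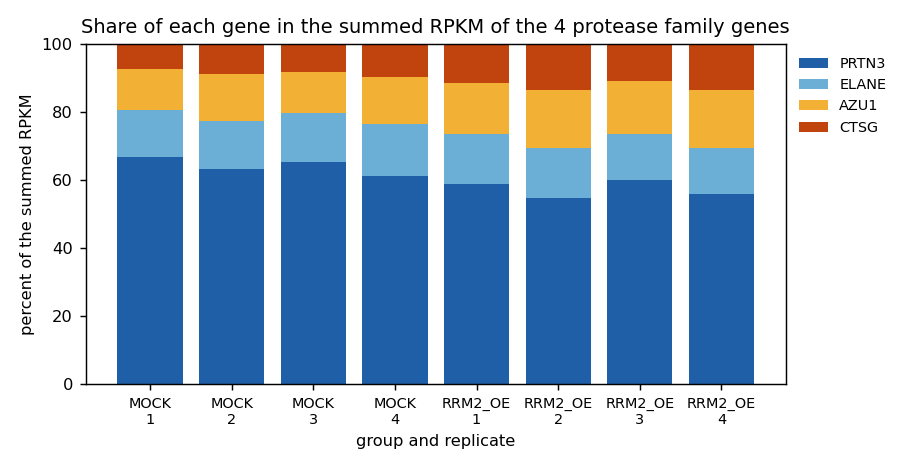
Percent of the summed RPKM of PRTN3, ELANE, AZU1 and CTSG taken by each gene, 1 bar per library. The PRTN3 part is shorter and the CTSG part taller in the 4 RRM2_OE bars (CTSG 10.9% to 13.7% against 7.35% to 9.65% in MOCK), while the ELANE part overlaps between groups.

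MPO encodes myeloperoxidase, the defining enzyme of azurophil granules. MPO (ENSG00000005381, chromosome 17, 56347217 to 56358296, minus strand) was at 1350, 1079, 1354 and 1118 CPM in MOCK replicates 1 to 4 and at 512, 421, 511 and 419 CPM in RRM2_OE replicates 1 to 4. Its 2.63-fold lower level was the largest difference of the 8 (log2 fold change -1.40, SE 0.10), and 4 of the 15286 tested genes had a lower log2 fold change. As with PRTN3, replicates 1 and 3 were higher than replicates 2 and 4 in either group.

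EPX encodes the peroxidase of eosinophils. EPX (ENSG00000121053, chromosome 17, 56270098 to 56282535, plus strand) was at 52.3, 42.5, 51.4 and 46.8 CPM in MOCK and at 33.9, 26.1, 32.8 and 26.5 CPM in RRM2_OE. The groups did not overlap, although the highest RRM2_OE and the lowest MOCK library were closer than for MPO, and the level was 1.62-fold lower (log2 fold change -0.69, SE 0.10). Of the other 7 markers listed for eosinophils, basophils and mast cells, 2 rose and 1 (KIT) fell, beside 7.41% and 5.42% of all genes. CLC, the Charcot-Leyden crystal protein, rose by 0.31 on the log2 scale (edgeR adjusted p = 0.0078), and the eosinophil granule protein PRG2 gave 0.13 (edgeR adjusted p = 0.594).

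LPO encodes lactoperoxidase, a peroxidase of milk, saliva and airway secretions, and was the least expressed of the 8. LPO (ENSG00000167419, chromosome 17, 56295909 to 56345879, plus strand) had 116, 92, 103 and 112 counts in MOCK and 62, 58, 54 and 60 counts in RRM2_OE, or 8.14 to 10.2 CPM against 4.68 to 5.40 CPM. All 4 RRM2_OE libraries were lower, by 1.85-fold (log2 fold change -0.89, SE 0.11, or -0.45 on log2(RPKM + 1), a scale that shrinks the differences of low genes). Its span overlaps MKS1 on the opposite strand over 1058 bases, and whether reads were counted by strand is not stated in the labels used here.

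TSPOAP1 encodes a large adaptor protein known as a partner of the mitochondrial translocator protein and as a RIM-binding protein, and is no granule gene. TSPOAP1 (ENSG00000005379, chromosome 17, 56378592 to 56406152, minus strand) was at 140, 141, 141 and 144 CPM in MOCK and at 73.7, 68.9, 69.2 and 72.2 CPM in RRM2_OE. In MOCK it had the least spread of the 8 relative to its level, with an SD of 1.58 CPM, and it was 1.99-fold lower (log2 fold change -0.99, SE 0.04). The antisense gene TSPOAP1-AS1, which overlaps it over 3342 bases, was at 75.4 ± 4.77 CPM in MOCK and 76.1 ± 5.02 CPM in RRM2_OE (mean ± SD, n = 4; edgeR adjusted p = 0.929).

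The other genes around these 8 were tested. Within 200 kb of them lay 54 other genes, of which 33 were tested; 1 rose and 4 fell, beside 7.41% and 5.42% of all genes tested, with a median log2 fold change of -0.04 (-0.0028 over all genes). On chromosome 17, 1 of 10 tested neighbours fell, an unnamed gene (ENSG00000264112, log2 fold change -0.31, edgeR adjusted p = 0.016, but 0.055 by limma on log2 RPKM) 197887 bases from EPX. MKS1, a ciliary gene that lies between EPX and LPO, was at 15.0 ± 0.51 CPM in MOCK and 13.9 ± 0.98 CPM in RRM2_OE (edgeR adjusted p = 0.422). On the far side of TSPOAP1, MIR142HG, the host transcript of a blood cell microRNA, gave -0.22 (edgeR adjusted p = 0.205, and 0.0012 with replicate number as a block), and on the near side of EPX the dynein light chain gene DYNLL2 gave 0.13 (edgeR adjusted p = 0.139, and 0.015 with the block). The other 9 tested neighbours on chromosome 17 were not called without the block. Among them SRSF1, chosen after its values were seen, was at 261 ± 15.3 CPM in MOCK and 230 ± 14.2 CPM in RRM2_OE. It gave -0.18 (edgeR adjusted p = 0.053, and 5.47e-06 with the block) and was called under 6 of 17 alternatives.

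On chromosome 19, 3 of 17 tested neighbours fell, beside 5.42% of all genes tested, and 14 were not called. The 3 that fell were the nearest tested ones on either side of the protease family genes and the next one along. PLPPR3, a membrane protein of the lipid phosphatase family known mainly from neurons, lies 3130 bases from AZU1 on the opposite strand. It fell from 59.3 ± 7.35 to 34.2 ± 2.50 CPM (mean ± SD, n = 4; log2 fold change -0.79, SE 0.09, edgeR adjusted p = 1.26e-04), beside -0.72 for AZU1. CFD, which encodes complement factor D, a serine protease of the alternative complement pathway, lies 3211 bases after ELANE and fell from 105 ± 3.64 to 77.5 ± 3.71 CPM (log2 fold change -0.44, SE 0.05, edgeR adjusted p = 1.21e-04). MED16, a Mediator subunit next to CFD, fell by 0.23 on the log2 scale (edgeR adjusted p = 0.026), a call lost without any of 5 single libraries (MOCK replicates 3 and 4, RRM2_OE replicates 2, 3 and 4; adjusted p up to 0.077) and by limma on log2 RPKM (adjusted p up to 0.058). The splicing factor gene PTBP1, just past PLPPR3, gave -0.14 (edgeR adjusted p = 0.242, and 8.17e-05 with the block, a fall), and R3HDM4, past MED16, gave 0.11 (edgeR adjusted p = 0.446, and 0.054 with the block); these last 2 were chosen after their values were seen. Further out, PRSS57 (-0.25), POLRMT (-0.18) and WDR18 (-0.15) were not called (edgeR adjusted p = 0.063, 0.162 and 0.400). With the block they fell (edgeR adjusted p = 3.97e-09, 0.042 and 0.047). ABCA7 (0.11, edgeR adjusted p = 0.133) rose with the block (edgeR adjusted p = 0.025). These too were chosen after their values were seen. With replicate number as a block, 3 of the 33 neighbours rose and 10 fell, beside 15.1% and 14% of all genes tested (29.1% in either direction).

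Around CTSG on chromosome 14, 1 of 6 tested neighbours changed, beside 12.8% of all genes tested in either direction. GZMB, the cytotoxic granule protease granzyme B, which is a close relative of CTSG 54694 bases away, went the other way, from 24.3 ± 1.79 to 32.3 ± 0.62 CPM (mean ± SD, n = 4; log2 fold change 0.41, SE 0.07, edgeR adjusted p = 0.0017). SDR39U1, the nearest tested gene on the other side, gave -0.04 (edgeR adjusted p = 0.672). The mast cell chymase gene CMA1 had 0.27 CPM in MOCK and the granzyme gene GZMH 0.07 CPM, too few to test.

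**Figure D3:**
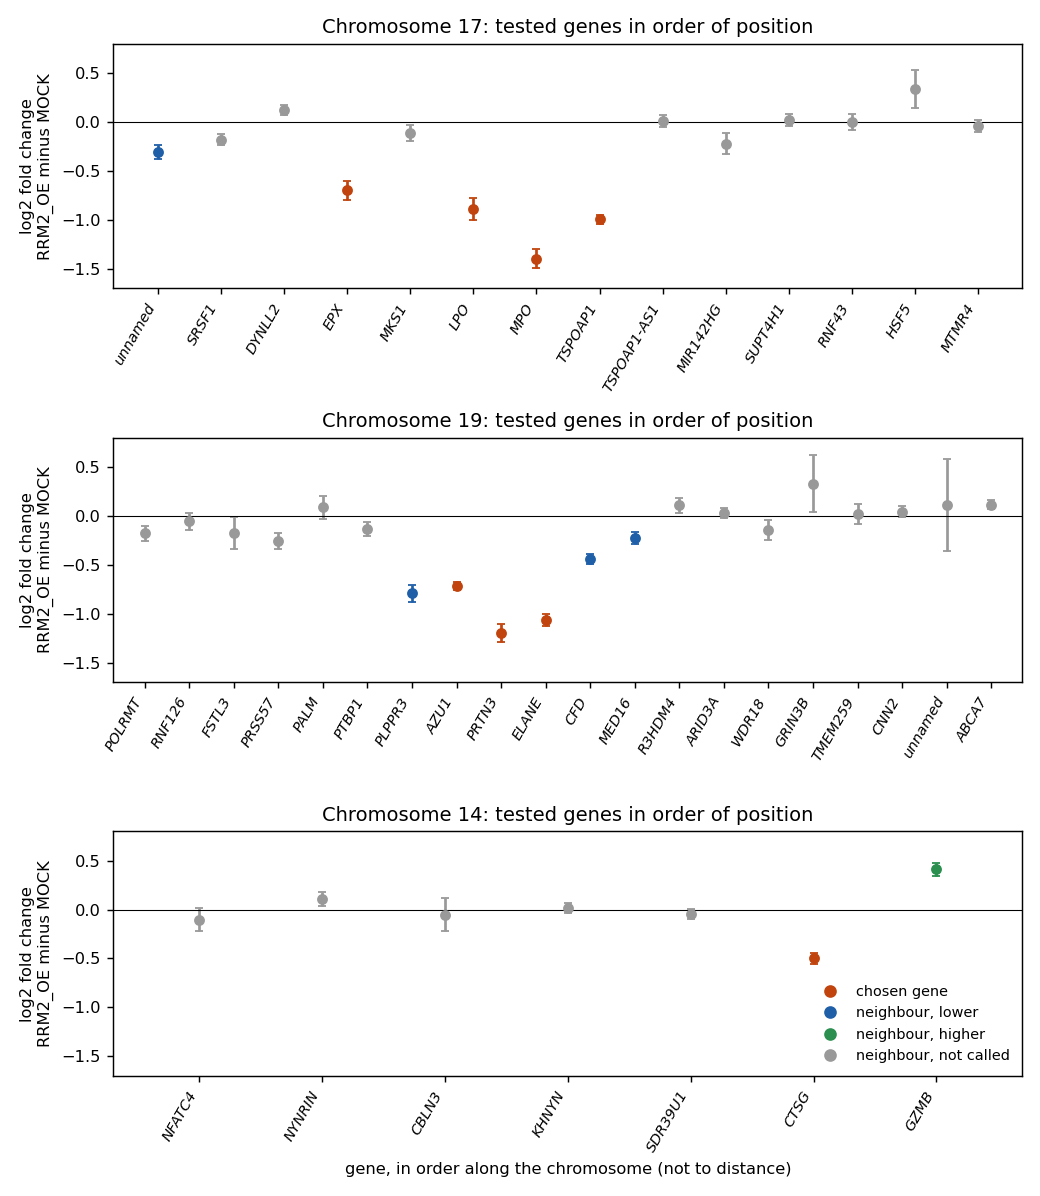
Log2 fold change (RRM2_OE minus MOCK, bars ± SE) of every tested gene within 200 kb of the chosen genes, in order along chromosomes 17, 19 and 14, with distances not to scale. Orange marks are the chosen genes, blue and green marks neighbours that fell or rose, grey marks neighbours not called. On chromosome 19 the neighbours called lower are PLPPR3 (-0.79), CFD (-0.44) and MED16 (-0.23), and 14 of the 17 tested neighbours were not called. Among those not called is PRSS57 (-0.25), further out. GZMB (0.41) lies above 0 beside CTSG (-0.50).

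Replicates 1 and 3 differed from replicates 2 and 4 across much of the transcriptome, a line noticed in these data that crosses the groups and whose origin the labels do not give. Because the line was found in these same libraries, the p-values given for it are descriptive and are no independent test of it. In a fit with both terms, 15.4% of tested genes were higher and 15% lower in replicates 1 and 3 (edgeR, adjusted p below 0.05), and of the 8 genes 4 were higher and 1 lower. MPO was 1.23-fold higher in replicates 1 and 3 (1350 and 1354 against 1079 and 1118 CPM in MOCK, edgeR adjusted p = 7.21e-15), EPX 1.20-fold (adjusted p = 8.34e-05), PRTN3 1.19-fold (adjusted p = 7.47e-12) and ELANE 1.10-fold (adjusted p = 0.0022). CTSG went the opposite way, with a log2 difference of -0.11 (SE 0.03, edgeR adjusted p = 9.17e-04). AZU1 (-0.01), LPO (0.05) and TSPOAP1 (-0.0011) did not pass (edgeR adjusted p 0.791 to 0.987).

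The estimated difference between RRM2_OE and MOCK was of similar size in either pair of replicates. For MPO it was -1.41 (SE 0.04) on the log2 scale in replicates 1 and 3 and -1.39 (SE 0.04) in replicates 2 and 4, and for PRTN3 -1.20 (SE 0.05) and -1.20 (SE 0.04). The pairs were furthest apart for LPO, at -0.95 (SE 0.18) and -0.83 (SE 0.18), and EPX, at -0.64 (SE 0.08) and -0.76 (SE 0.08). A test of that difference itself called 0 of the 8 genes, and 0 at an unadjusted p below 0.05 (edgeR interaction term, n = 2 libraries per cell of the design, adjusted p = 1.00 for each). Over all genes it called 0 of 15286, with 3.21% at an unadjusted p below 0.05, and no other tool was run for it. With 2 libraries per cell it cannot show that the effects were equal. The interaction estimate was 0.12 (SE 0.11) for EPX and -0.12 (SE 0.25) for LPO.

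**Figure D4:**
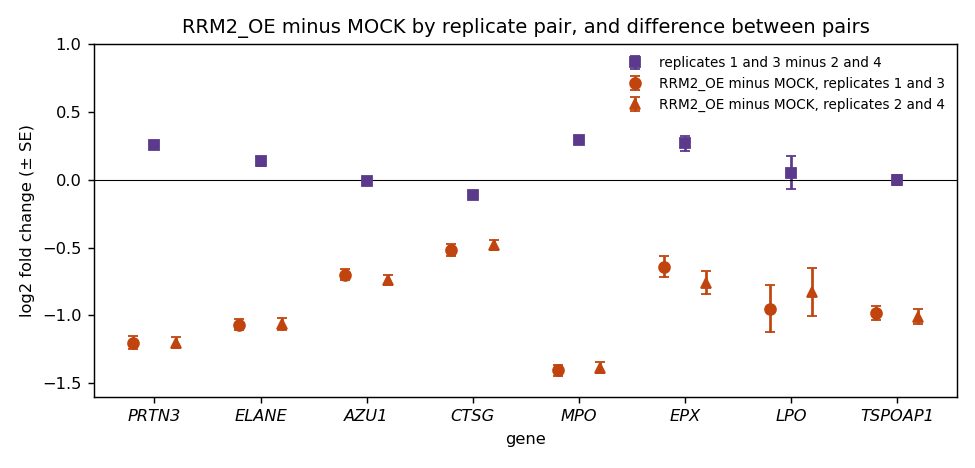
Log2 differences (± SE) for the 8 genes: purple squares, replicates 1 and 3 minus 2 and 4 over both groups; orange circles and triangles, RRM2_OE minus MOCK within replicates 1 and 3 and within 2 and 4. MPO (0.29), EPX (0.27), PRTN3 (0.26) and ELANE (0.13) lie above 0 among the squares and CTSG (-0.11) below. The orange pairs lie furthest apart for LPO and EPX.

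The genes whose profiles over the 8 libraries were most like those of MPO and PRTN3 included other genes of the set. Likeness was the root-mean-square difference of log2 CPM centred on each gene's mean, over 11895 genes with a mean of at least 5 CPM, and is a description with no test, since the profiles hold the contrast that chose the genes. For MPO the closest were IGLL1, which encodes part of the surrogate light chain of immature B cells (0.11), PRTN3 (0.11), ELANE (0.19), TNXB (0.21) and ENSG00000224277, an unnamed gene that overlaps IGLL1 on the opposite strand (0.24). For PRTN3 they were MPO (0.11), ELANE (0.11), IGLL1 (0.16), TSPOAP1 (0.17) and TNXB (0.17). AZU1 took place 24 for MPO and 23 for PRTN3, and CTSG places 109 and 113. TNXB shares sequence with a pseudogene copy, which makes its counts uncertain.

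Other contents of azurophil granules went both ways. Of 14 tested, 2 rose and 2 fell, beside 7.41% and 5.42% of all genes, with a median log2 fold change of 0.04; with the replicate block 4 rose and 3 fell, beside 15.1% and 14%. The 2 that fell were the ribonuclease genes RNASE2, from 655 ± 42.1 to 461 ± 4.80 CPM (mean ± SD, n = 4; log2 fold change -0.51, edgeR adjusted p = 5.02e-05), and RNASE3, from 97.6 ± 3.59 to 73.3 ± 1.47 CPM (-0.41, edgeR adjusted p = 1.09e-04), which are known from eosinophil granules and are close paralogs. Lysozyme (LYZ) rose from 1705 ± 118 to 2197 ± 113 CPM (0.37, edgeR adjusted p = 0.0020), and BPI, the bactericidal permeability-increasing protein, by 0.36 on the log2 scale (edgeR adjusted p = 0.014). Serglycin (SRGN), the proteoglycan that holds the proteases, was at 9310 ± 543 CPM in MOCK and 9433 ± 351 CPM in RRM2_OE (edgeR adjusted p = 0.892), and the lysosomal protease CTSD gave 0.0038 (edgeR adjusted p = 0.988). The protease gene PRSS57, a granule relative of elastase that lies 129637 bases from AZU1, was at 380 ± 33.4 and 319 ± 34.8 CPM with overlapping groups (-0.25, edgeR adjusted p = 0.063, and 3.97e-09 with the block). The alpha-defensin genes DEFA1, DEFA1B and DEFA3, which have near-identical copies, had 0 counts in every library.

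Genes for the maturation, sorting and inhibition of granule proteins were mixed as well. Of 15 tested, 4 rose and 3 fell, beside 7.41% and 5.42% of all genes, with a median of 0.05, and with the block 6 rose and 5 fell, beside 15.1% and 14%. SERPINB1, an intracellular inhibitor of elastase, proteinase 3 and cathepsin G, fell from 578 ± 21.2 to 459 ± 17.2 CPM (mean ± SD, n = 4; log2 fold change -0.33, edgeR adjusted p = 6.15e-04). LYST, a regulator of lysosome-related organelles, fell by 0.25 on the log2 scale (edgeR adjusted p = 0.0029), and the granzyme B inhibitor SERPINB9 (0.53, edgeR adjusted p = 2.46e-04) and the broad protease inhibitor A2M (0.29, edgeR adjusted p = 0.0014) rose. CTSC, the protease that activates the granule serine proteases, was at 393 ± 8.33 and 406 ± 6.13 CPM (edgeR adjusted p = 0.509), and the chaperone CANX, which binds myeloperoxidase precursors, gave -0.15 (edgeR adjusted p = 0.129, and 2.45e-05 with the block). The others that passed, chosen after their values were seen, were the chaperone CALR (-0.23), the elastase inhibitor SERPINA1 (0.34) and GFI1B (0.32), a transcription factor that does not belong under the name of this list. The calls of SERPINA1 and GFI1B were both lost without MOCK replicate 3 or 4 or RRM2_OE replicate 1 or 3 (edgeR adjusted p up to 0.081 and 0.066), which left 2 rises in this list.

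Among transcription factors of the granule genes and of monocyte fate, 2 of 24 tested rose and 6 fell, beside 7.41% and 5.42% of all genes, with a median of 0.02; with the block 6 rose and 7 fell, beside 15.1% and 14%. MYC fell from 290 ± 12.7 to 207 ± 5.71 CPM (mean ± SD, n = 4; log2 fold change -0.49, edgeR adjusted p = 3.33e-05). CEBPE, the C/EBP factor of granulocyte maturation, fell from 14.1 ± 1.08 to 8.92 ± 1.25 CPM (-0.66, edgeR adjusted p = 0.0017), and MYB, a factor of immature blood cells that acts on several of these granule genes, from 515 ± 10.7 to 433 ± 11.0 CPM (-0.25, edgeR adjusted p = 0.0021). CUX1 fell by 0.18 on the log2 scale (edgeR adjusted p = 0.014, but up to 0.055 by limma on log2 RPKM). RUNX1 gave -0.05 (edgeR adjusted p = 0.730) and GATA2 0.11 (edgeR adjusted p = 0.484, and 6.27e-04 with the block). CEBPA gave -0.08 (edgeR adjusted p = 0.366) and SPI1, which encodes PU.1, 0.01 (edgeR adjusted p = 0.968). CEBPB gave 0.33 (edgeR adjusted p = 0.064, and 1.33e-08 with the block). CEBPD gave -0.24 (edgeR adjusted p = 0.092, and 0.018 with the block). These C/EBP genes and SPI1 were chosen after their values were seen. The others that passed, chosen after their values were seen, were ETV6 (-0.19), GFI1 (-0.14), IRF8 (0.46) and CEBPG (0.23). The GFI1 call was lost without any 1 of the 8 libraries (edgeR adjusted p up to 0.102). The calls of ETV6 (adjusted p up to 0.096) and CEBPG (up to 0.108) were lost without any of 6, those other than MOCK replicate 4 and RRM2_OE replicate 1, and the IRF8 call without RRM2_OE replicate 4 (edgeR adjusted p = 0.051). Without MOCK replicate 2, RRM2_OE replicate 3 or RRM2_OE replicate 4, 5 of these factors were called, and 4 by limma on log2 RPKM.

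Genes of haem synthesis, which supplies the cofactor of the peroxidases, and of the wider peroxidase superfamily gave 3 rises and 1 fall among 14 tested, beside 7.41% and 5.42% of all genes, with a median of -0.02, and 6 and 3 with the block, beside 15.1% and 14%. ALAS2, the erythroid first enzyme of haem synthesis, fell from 30.2 ± 2.16 to 19.2 ± 0.92 CPM (mean ± SD, n = 4; log2 fold change -0.66, edgeR adjusted p = 1.24e-04), while its housekeeping form ALAS1 gave 0.10 (edgeR adjusted p = 0.114, and 0.0014 with the block). The cyclooxygenase PTGS2 rose by 0.28 (edgeR adjusted p = 0.0034), the NADPH oxidase DUOX2 by 0.60 (edgeR adjusted p = 0.018) and the haem-degrading HMOX1 by 0.23 (edgeR adjusted p = 0.029), and PTGS1 gave 0.10 (edgeR adjusted p = 0.407, and 0.0070 with the block). The DUOX2 call was lost without MOCK replicate 4 or RRM2_OE replicate 4 (adjusted p up to 0.055), which left 2 of this list called, and the HMOX1 call without any of 5 single libraries (MOCK replicates 2 and 4, RRM2_OE replicates 1, 3 and 4; adjusted p up to 0.085).

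Of 6 tested relatives among the serine proteases of blood cells, 2 rose and 1 fell, beside 7.41% and 5.42% of all genes, with a median of 0.06, and 3 and 2 with the block, beside 15.1% and 14%. Beside GZMB and CFD, the mast cell tryptase gene TPSAB1 rose by 0.32 with overlapping groups (edgeR adjusted p = 0.025, and up to 0.070 without any of 5 single libraries: MOCK replicates 2, 3 and 4, RRM2_OE replicates 1 and 3). TPSB2, a near-identical copy that makes both counts uncertain, gave 0.29 (edgeR adjusted p = 0.551, and 9.11e-05 with the block).

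Of 10 tested genes of the later, secondary and tertiary granules, 3 rose and 0 fell, beside 7.41% and 5.42% of all genes, with a median of 0.12 (0 fell at an unadjusted p below 0.05 in edgeR, and 0 by DESeq2). With the block 4 rose and 0 fell, beside 15.1% and 14%. The list held 16 genes. CAMP, MMP8, CEACAM8, PGLYRP1, OLFM4 and ARG1 had too few counts to test. LTF, at 2.22 CPM in MOCK, and LCN2, at 0.93 CPM, were tested but low, and neither was called. HP was at 3.98 CPM in MOCK. CD177, a neutrophil surface protein that presents proteinase 3 on the membrane, rose from 3.85 ± 0.49 to 9.48 ± 1.09 CPM (mean ± SD, n = 4; log2 fold change 1.30, edgeR adjusted p = 6.22e-05), in the opposite direction to PRTN3. Haptoglobin (HP) rose by 0.74 (edgeR adjusted p = 0.0024) and the vitamin B12 carrier TCN1 by 0.27 (edgeR adjusted p = 0.039, and up to 0.112 without MOCK replicate 2 or 4 or RRM2_OE replicate 1 or 3). MMP9, a gelatinase, was the most expressed, with 0.15 (edgeR adjusted p = 0.553, and 2.13e-04 with the block), and MMP25 gave -0.01 (edgeR adjusted p = 0.957).

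**Figure D5:**
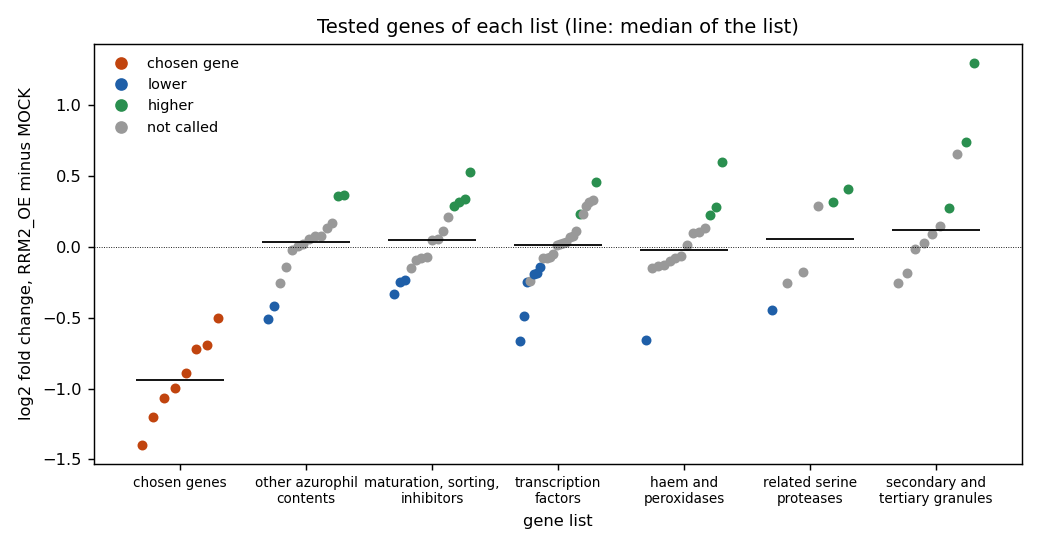
Log2 fold change (RRM2_OE minus MOCK) of every tested gene of the chosen set and of 6 pathway lists, with the median of each list as a line; orange marks are the chosen genes, and of the others blue marks fell, green marks rose and grey marks were not called. The chosen genes lie between -1.40 and -0.50, while each of the other lists has its median between -0.02 and 0.12.

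Markers of cell types moved beside these genes, and their part in the results was not tested. Their counts stand beside 7.41% of all genes called higher and 5.42% called lower, and beside 15.1% and 14% with the block. Of 9 tested monocytic markers 4 rose and 1 fell, and 6 and 1 with the block. Their summed level was 2153 to 2335 CPM in MOCK and 2680 to 2870 CPM in RRM2_OE, and most of it was LYZ (1705 and 2197 CPM on average). CD33 gave 0.13 (edgeR adjusted p = 0.216, and 0.0034 with the block). Of 6 erythroid markers 0 rose and 3 fell, and 0 and 4 with the block (0 rose at an unadjusted p below 0.05 in edgeR and 0 by DESeq2). The falls were those of ALAS2 and of the fetal globin genes HBG1 (-0.57) and HBG2 (-0.64), near-identical copies whose counts are uncertain. The summed erythroid level of 1822 to 1997 CPM in MOCK and 1706 to 1823 CPM in RRM2_OE does not show them, since most of it was the transferrin receptor gene TFRC (1685 and 1575 CPM on average, log2 fold change -0.10, edgeR adjusted p = 0.243, and 0.0074 with the block). Of 8 eosinophil, basophil and mast cell markers 2 rose and 2 fell (903 to 996 and 921 to 1023 CPM). With the block 5 rose and 2 fell. In both counts the falls were those of EPX and KIT. Nothing is read from that of EPX, which was chosen on this contrast. The fall of KIT (-0.15, edgeR adjusted p = 0.032) was lost without any 1 of the 8 libraries (adjusted p up to 0.092). CPA3 gave 0.09 (edgeR adjusted p = 0.28, and 0.0053 with the block). Of 3 tested lymphoid markers 2 rose, with and without the block (21.1 to 23.8 and 30.1 to 34.8 CPM), of which CD79A was lost without any of 6 libraries, those other than MOCK replicate 1 and RRM2_OE replicate 4 (edgeR adjusted p up to 0.102), and by DESeq2. Neither of the 2 tested epithelial and fibroblast markers was called (27.6 to 34.0 and 30.4 to 34.4 CPM; 0 at an unadjusted p below 0.05 in edgeR and 0 by DESeq2). Of all 35 marker genes, 0 were at 0 counts in every library.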

How the data were processed

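Deposited read counts per Ensembl gene were used for 8 libraries, 4 labelled MOCK and 4 labelled RRM2_OE; groups and replicate numbers came from the sample labels and each column was matched to a sample by name. Per the labels' protocols, libraries were stranded poly(A) libraries from total RNA. Tools listed in the submitters' processing notes are HTSeq 0.11.2, TopHat2 and bcl2fastq 2.18.0.12, with build hg19 (GRCh37) and no roles; the annotation and the strand setting were not stated there. The authors' deposited RPKM values were recomputed from the counts, column totals and deposited exon length to within 4.7e-06. Exon length and coordinates are those deposited with each gene. Of 34618 genes, 32562 took a current symbol, 299 one from GENCODE 29, and 1757 none.

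Counts were tested with edgeR 4.0.16 (R 4.3.3): filterByExpr defaults (15286 genes), TMM factors, robust quasi-likelihood F tests without covariates, Benjamini-Hochberg over all genes tested, threshold 0.05. The SE was taken as the size of the log2 fold change divided by √F. The script was tested on simulated data. The members and gene lists were chosen with earlier results of these data known. Named were all members, up to 4 called genes of smallest adjusted p and the 2 most expressed uncalled genes per list, called or nearest neighbours, and 5 most similar profiles; others are marked in the text or are cell type markers. All 141 list entries matched.

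Same-numbered libraries deviated together (correlations of deviations of log2 CPM, prior count 2, from group means of 0.22 to 0.25, all over 0.1). Libraries of other numbers that were both odd or both even did so as much (0.23 to 0.29), and those of 1 odd and 1 even number deviated oppositely (-0.28 to -0.21), so the data show an odd/even split rather than pairs, and the labels state neither. The block is given where it changes the call of a named gene. Alternatives were DESeq2 1.42.0, limma 3.58.1 on log2(RPKM + 1) and log2(RPKM + 0.1), RLE factors, library sizes only, no filter, 1 CPM in 4 libraries, the replicate block, an odd/even term, other windows and each library left out.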

Additional observations from a re-analysis of the deposited data

How the results depend on the processing

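Each of the 8 log2 fold changes stayed negative under all 19 alternatives run for it, 2 of which (replicates 1 and 3 alone, replicates 2 and 4 alone) were added after seeing the data. Leaving out 1 library gave -1.45 to -1.34 for MPO, -1.26 to -1.14 for PRTN3, -1.11 to -1.01 for ELANE, -1.01 to -0.98 for TSPOAP1, -0.95 to -0.85 for LPO, -0.76 to -0.64 for EPX, -0.73 to -0.70 for AZU1 and -0.53 to -0.46 for CTSG. On log2(RPKM + 1), LPO gave -0.45 and TSPOAP1 -0.88, as the pseudocount shrinks low levels. The difference of TSPOAP1 between replicates 1 and 3 and replicates 2 and 4, which did not pass, turned from -0.0011 to 9.24e-04 with RLE factors.

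Over all genes, 1962 calls became 4446 with the replicate block (1 term per replicate number) and 4704 with an odd/even term, and 1353 to 1544 without 1 library. With the block and with the odd/even term in turn, calls were 7 and 9 for other azurophil contents (4 in the test without them), 11 and 11 for maturation and inhibition (7), 13 and 15 for transcription factors (8), 9 and 9 for haem and peroxidases (4), 5 and 5 for serine proteases (3) and 13 and 14 for neighbours (5); the cause was not tested. The block took no call from a named gene, and turned others into calls, given beside each. By limma on log2 RPKM, with a pseudocount of 1 or 0.1, 4 transcription factors and 3 neighbours were called. With a window of 500 kb, 10 neighbours were called, more genes being tested. The number tested in that window is not given here, so nothing is read from that count. Leaving out 1 library gave 5 to 7 transcription factors, 2 to 4 haem and peroxidase genes, 5 to 7 maturation genes, 2 to 3 serine proteases, 4 to 5 neighbours, 2 to 3 secondary and tertiary granule genes and 4 azurophil contents. LPO, with 54 to 116 counts a library, is limited by depth.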
